A study of Arabidopsis thaliana with 3 samples.

Results

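The genes that give a leaf its abaxial, or lower, side were examined for binding by SPL10, an SBP-domain transcription factor of Arabidopsis thaliana. They were chosen by locus and comprised 10 of 37899 nuclear genes: KAN1 (AT5G16560), KAN2 (AT1G32240), KAN3 (AT4G17695) and ATS (AT5G42630) of the KANADI family, YAB1 (AT2G45190), YAB2 (AT1G08465), YAB3 (AT4G00180) and YAB5 (AT2G26580) of the YABBY family, and the auxin response factors ARF3 (AT2G33860) and ARF4 (AT5G60450). All 10 are protein-coding and were found by locus tag in the gene table, which lists KAN1, YAB1 and ARF3 under the symbols KAN, AFO and ETT. Every peak with its summit inside one of these genes or within 3000 bp of either end was taken. The list of SPL10 replicate 1 gave 13 such peaks of 21500 nuclear peaks, and that of replicate 2 gave 14 of 21363.

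The study mapped SPL10 sites by an assay labelled DAP-seq, which as usually described recovers purified genomic DNA retained by a transcription factor made outside the plant. It held 2 SPL10 precipitations (IP1 and IP2) and 1 input, all labelled as leaf of the ecotype Col-0, with no genotype, treatment with an agent, plant age or protein construct given. A formaldehyde fixation and sonication of chromatin are given in the labels' protocols for every sample, which is not a step of DAP-seq as usually described, so the labels do not settle whether a fold refers to naked DNA or to chromatin. Each precipitation has its own list of called peaks, in which the fold enrichment at the summit is the authors' ratio to the peak caller's background, and no list was used for the input.

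Flat leaves form where an upper (adaxial) and a lower (abaxial) domain meet. KANADI proteins are GARP-type transcription factors that promote abaxial identity and act against the HD-ZIP III genes of the adaxial side. YABBY proteins carry a zinc finger and a YABBY domain, are expressed on the abaxial side of lateral organs and promote growth of the blade. ARF3 and ARF4 act in the same pathway as KANADI, and their transcripts are cut by small RNAs, the tasiR-ARFs, that are made from TAS3 transcripts. SPL10 belongs to the SPL family, whose members recognise DNA with a GTAC core and are restrained in part by miR156.

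SPL10 peaks were found in both replicates at 8 of the 10 genes. All 4 YABBY genes and the KANADI genes KAN2 and ATS had a shared peak inside the gene, while the shared peaks of ARF3 and ARF4 lay outside them. KAN2 had by far the strongest peak of the set, KAN1 had overlapping peaks that missed the criterion for sharing, and KAN3 had no peak in its window in either list. A peak was called shared when it overlapped a peak of the other list by at least 50% of the longer peak, and its position was then the mean of both summits. Of all 27444 protein-coding genes, 69.7% had a shared peak in the gene or within 3000 bp, a share near that of the members. In the list of replicate 1 alone 9 of 10 had a peak, against 79.2% of coding genes, and in that of replicate 2 alone 9 of 10, against 78.8%. The count was 2 of 10, KAN2 and YAB2, when only the 5000 peaks of highest fold in each list were kept, against 26.1% of coding genes.

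Inside the gene, 6 of 10 members had a shared peak, against 26.6% of protein-coding genes. In the flanks 4 of 10 had a shared peak, against 59% of protein-coding genes. The members are longer than most coding genes, with lengths of 2232 to 5130 bp and a median of 3664.5 bp against a median of 2078 bp over coding genes. Per length, the members had 1.91 shared summits per 10 kb of gene body (95% exact Poisson interval 0.767 to 3.93, 7 summits) and 0.833 per 10 kb of flank (0.271 to 1.94, 5 summits), with flanks counted whole. Over all protein-coding genes the densities were 1.32 per 10 kb of gene body and 1.62 per 10 kb of flank outside coding genes, both within the members' intervals. These intervals, like those of the folds below, cover counting error only.

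**Figure D1:**
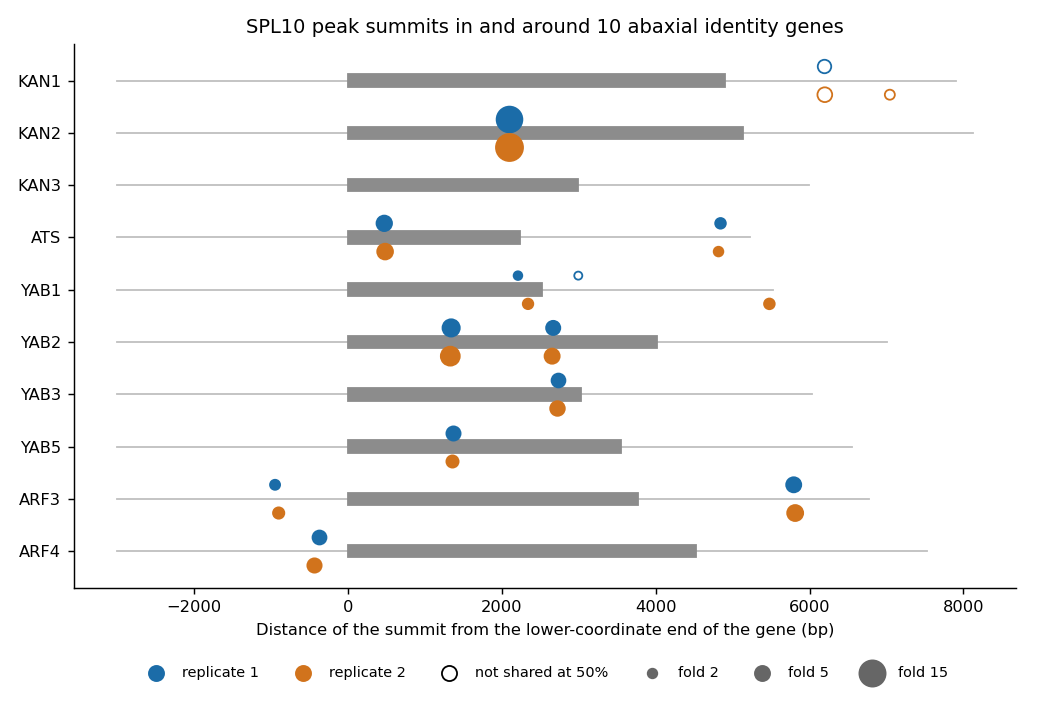
Position of each SPL10 summit relative to the lower-coordinate end of its gene, in bp, with genes as thick bars and the 3000 bp flanks as thin lines. Circle area is proportional to the fold enrichment, replicate 1 is drawn above and replicate 2 below each gene, and open circles are peaks without a partner at 50% reciprocal overlap. The KAN2 circles are the widest, at 14.5-fold and 16.0-fold, KAN3 has none, and the outermost YAB1 peak of replicate 2 has a partner in replicate 1 that lies just outside the window.

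KAN2, which acts redundantly with KAN1 in abaxial identity, carried a peak of 14.5-fold on 204 tags in replicate 1 and 16.0-fold on 211 tags in replicate 2. Tags are the sequenced tags piled up at the summit, their number worked out from the fold and p-value of the lists. No counting interval is given for KAN2, because its tags exceed 198 and the highest tag number in the lists, 396, may limit counts this high. The region ran on chromosome 1 (TAIR10) from 11627524 to 11628371 in replicate 1 and from 11627511 to 11628371 in replicate 2, so it was 848 and 861 bp wide, against a median width of 311 and 310 bp in the lists. The summit stood 2099 bp inside the gene from its lower-coordinate end in replicate 1 and 2092 bp in replicate 2, in a gene of 5130 bp. It was the strongest peak at any of the 10 genes in both lists, at percentile 97.3 of all shared peaks by mean fold. The nearest other annotated gene was 10296 bp from the summit of replicate 1 and 10289 bp from that of replicate 2. A shared peak in the gene of at least this mean fold, 15.2, was found at 0.634% of protein-coding genes. That level was set by KAN2 itself, the strongest and also the longest of the 10 genes, so the share is no test of rarity.

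KAN1, which promotes abaxial identity in leaves and carpels, had a peak past its higher-coordinate end. In replicate 1 it was 3.98-fold (3.02 to 5.15) on chromosome 5 at 5412540 to 5413180, 1281 bp from the gene. In replicate 2 it was 4.77-fold (3.67 to 6.08) at 5412901 to 5413200, 1295 bp from the gene. The summits were 14 bp apart, but the overlap of 280 bp covered 93.3% of the replicate 2 peak and only 43.7% of the wider replicate 1 peak, so the pair missed the minimum of 50%. With any overlap, or with summits within 100 bp, KAN1 counted as a ninth member with a shared peak. Under these rules 71.5% and 70% of protein-coding genes had one. A further peak of 2.20-fold (1.49 to 3.14), 2140 bp from the gene, was in the replicate 2 list only.

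ATS, or KAN4, which acts in the integuments of the ovule, had a shared peak inside the gene and a weaker one outside it. The inner peak was 5.25-fold (4.14 to 6.58) in replicate 1, on chromosome 5 at 17073998 to 17074356, and 5.44-fold (4.27 to 6.84) in replicate 2, at 17073945 to 17074331. Its summits stood 474 and 485 bp inside the lower-coordinate end. The outer peak, 2612 bp past the higher-coordinate end in replicate 1 and 2586 bp in replicate 2, measured 2.49-fold (1.76 to 3.45) and 2.05-fold (1.37 to 2.96). The counting intervals of the inner and outer peak did not overlap in either replicate. The outer summits were closer to the coding gene AT5G42635, at 1791 and 1765 bp, which stands between them and ATS.

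KAN3, a further KANADI gene, had no summit within 3000 bp in either list. The nearest stood 3697 bp off the lower-coordinate end in replicate 1 (1.86-fold) and 3580 bp off in replicate 2 (2.43-fold), at the coding gene AT4G17680. Stronger shared peaks stood past the higher-coordinate end, inside the coding gene AT4G17700. They were 3.27-fold and 3.41-fold at 3727 and 3730 bp in replicates 1 and 2, and 7.80-fold and 8.24-fold at 4682 and 4675 bp. Of all protein-coding genes, 15.5% had no peak of either list in the gene or within 3000 bp. A peak list holds only regions that passed the caller, so weaker binding at KAN3 was not measured.

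Among the YABBY genes, all 4 had a peak inside the gene in each list, that of YAB1 in replicate 1 with a q above 0.05. A shared peak inside the gene was found at 26.6% of protein-coding genes, whose median length of 2078 bp all 10 members exceed. Of the 6 shared peaks of the YABBY genes, 5 lay inside, against 58.2% of shared peaks near coding genes. YAB2 was the strongest, with a pair of shared peaks inside its 4012 bp. The first measured 6.53-fold (5.27 to 7.99) in replicate 1, on chromosome 1 at 2677002 to 2677609, and 7.86-fold (6.43 to 9.51) in replicate 2, at 2676991 to 2677638. The other was 4.40-fold (3.45 to 5.53) in replicate 1, at 2678306 to 2678641, and 5.01-fold (3.97 to 6.25) in replicate 2, at 2678294 to 2678638. The first summit was higher than the other in both lists, and their intervals overlapped in replicate 1 but not in replicate 2. They stood 1343 and 2669 bp inside the lower-coordinate end in replicate 1. Of protein-coding genes, 4.12% had 2 or more shared summits inside the gene.

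YAB3 and YAB5 each had 1 peak, again inside the gene and shared. At YAB3, which acts redundantly with YAB1, it was 4.20-fold (3.31 to 5.26) in replicate 1, on chromosome 4 at 75087 to 75454, and 4.69-fold (3.68 to 5.89) in replicate 2, at 75090 to 75647. The local background there was 1.28 and 1.18 times the genome level, so the 73 and 71 tags gave a lower fold than the same tags gave at ATS. At YAB5 the peak was 4.41-fold (3.39 to 5.63) in replicate 1, on chromosome 2 at 11304323 to 11304990, and 3.26-fold (2.37 to 4.37) in replicate 2, at 11304375 to 11304956. The YAB5 peak was the only shared peak other than the outer one of ATS that was higher in replicate 1 than in replicate 2, and its intervals in the replicates overlapped.

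YAB1, also called FIL, had a lower strongest peak than any other of the genes with one. Inside the gene, replicate 1 had 1.65-fold (1.06 to 2.45, 22 tags) on chromosome 2 at 18630282 to 18630531, and replicate 2 had 2.43-fold (1.68 to 3.41, 31 tags) at 18630199 to 18630652. The peaks overlapped by 55.1% of the longer one while their summits stood 131 bp apart, and the replicate 1 peak had a −log10 q of 0.486, which is a q above 0.05. Replicate 1 alone had a further peak of 1.42-fold (0.982 to 1.99) 468 bp past the higher-coordinate end, also with a q above 0.05. A peak of 2.50-fold (1.74 to 3.50) stood 2951 bp past the same end in replicate 2, and its partner in replicate 1, at 2.14-fold, stood 3049 bp off, so the mean summit fell exactly on the limit of 3000 bp. Without that peak the genes would have 11 shared peaks in place of 12, and 4 in the flanks in place of 5. With q of at most 0.05 in both lists, or with sharing by summits within 100 bp, YAB1 counted as having a shared peak through that peak alone. The YAB1 and YAB3 summits inside the genes were near the higher-coordinate end in both, at 316 and 185 bp for YAB1 and at 295 and 313 bp for YAB3. The gene table has no strand, so it is not known whether this is the same end of both genes.

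The auxin response factors had peaks only outside the genes. ARF4 had 4.26-fold (3.27 to 5.47) in replicate 1, on chromosome 5 at 24307709 to 24307997, and 4.46-fold (3.41 to 5.74) in replicate 2, at 24307647 to 24307984. These summits stood 377 and 433 bp off the lower-coordinate end of ARF4, and 162 and 106 bp from the neighbouring coding gene AT5G60440. The ARF4 peak therefore lay in the interval between both genes, closer to the neighbour.

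ARF3, which lacks the domain through which most auxin response factors bind Aux/IAA repressors, had a shared peak on either side. The stronger one, past the higher-coordinate end, was 4.97-fold (3.89 to 6.27) in replicate 1, on chromosome 2 at 14330830 to 14331161, and 5.60-fold (4.41 to 7.01) in replicate 2, at 14330831 to 14331175. Its summits stood 2022 and 2041 bp from ARF3, and no other annotated gene was within 5640 bp of either. The weaker one, 945 and 898 bp off the lower-coordinate end, reached 2.80-fold (1.99 to 3.85) in replicate 2, against 2.21-fold (1.52 to 3.12) in replicate 1. It lay 48 and 1 bp from the coding gene AT2G33855, which stands between this peak and ARF3. The intervals of the stronger and the weaker peak did not overlap in either replicate.

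**Figure D2:**
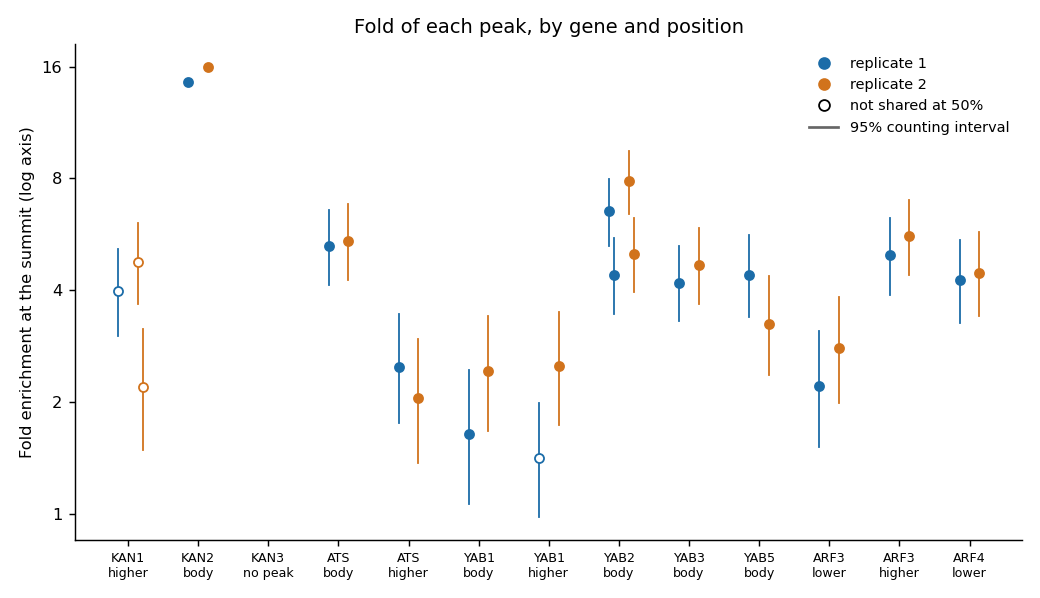
Fold enrichment at the summit (log axis) of each peak by gene and position, in replicate 1 (blue) and replicate 2 (orange), with the 95% exact Poisson counting interval as a line where the summit held at most 198 tags. Open circles are peaks without a partner at 50% reciprocal overlap, and the points in the column for the higher side of YAB1 are different sites. KAN2 stands apart at 14.5-fold and 16.0-fold, the first YAB2 peak follows at 6.53-fold and 7.86-fold, and YAB1 lies lowest in replicate 1, while the outer ATS peak does in replicate 2.

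None of the 27 peaks of these genes, counted over both lists, had its summit inside another annotated gene. For the flank summits the number to set beside it is the share over all protein-coding genes, where 54% of the pairs of a gene and a shared summit in its flanks had the summit inside another gene. The distance to the next coding gene past the higher-coordinate end was 322 bp at ATS and between 2233 and 9822 bp at the other 9 genes. Past the lower-coordinate end it was 8196 bp at KAN2 and between 0 bp, at ARF3, and 1709 bp, at ATS, at the other 9, with a coding gene also overlapping KAN1. The spacing of other coding genes was not compared. In 6 of 13 cases the flank summit was closer to another coding gene than to the member, namely both summits each of the outer ATS peak, the lower ARF3 peak and the ARF4 peak.

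The gene body was set against the flanks in each replicate over all listed peaks. In replicate 1 the 7 summits in gene bodies had a median of 4.41-fold (range 1.65 to 14.5) and the 6 in flanks one of 3.24-fold (1.42 to 4.97). In replicate 2 the 7 in gene bodies had a median of 5.01-fold (2.43 to 16.0) and the 7 in flanks one of 2.80-fold (2.05 to 5.60). The difference of the medians on the log2 scale, gene body minus flanks, was 0.44 in replicate 1 and 0.84 in replicate 2. The ranges overlapped in both, and the difference was not tested, since peaks are not replicates of a condition.

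Over all protein-coding genes the medians ran the other way. Summits in gene bodies had a median of 3.06-fold in replicate 1 and 3.03-fold in replicate 2, and summits in flanks, outside coding genes, 3.34-fold and 3.41-fold, a log2 difference of −0.13 and −0.17. The share of summits in gene bodies was 53.8% for the members in replicate 1, against 58.9% over all coding genes, and 50% in replicate 2, against 59%. Among shared peaks it was 7 of 12, against 58.2%. The shares over all coding genes count each peak once, as body if it lies inside any coding gene, while members were counted by their own windows. Counted per gene, 6 of 10 members had a shared peak in the body, against 26.6% of coding genes. In the flanks it was 4 of 10, against 59%. With only peaks of −log10 q of at least 10, the members' difference was 0.18 in replicate 1 and 0.19 in replicate 2, from 6 and 5 summits in gene bodies and 3 in flanks in each.

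**Figure D3:**
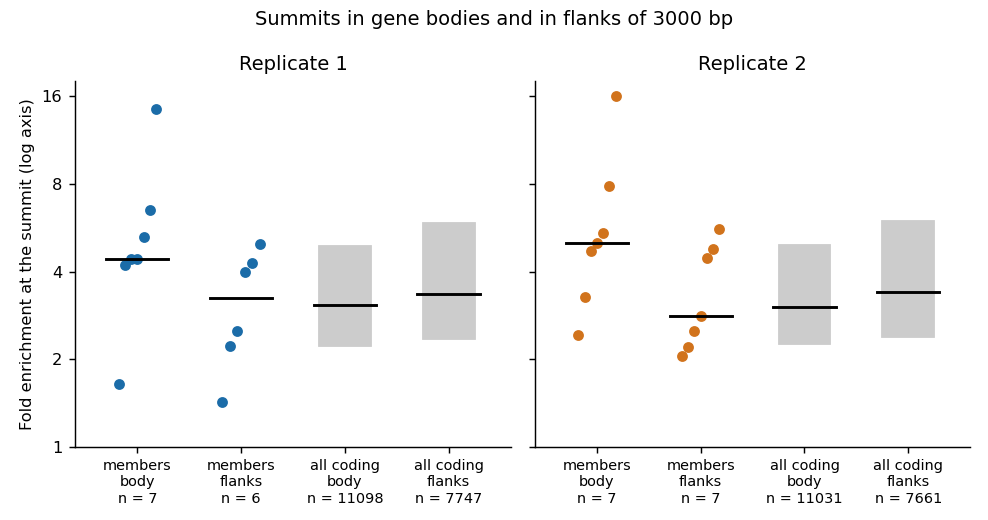
Fold enrichment at the summit (log axis) in gene bodies and in flanks of 3000 bp, for the 10 abaxial genes (points, one per peak) and for all protein-coding genes (grey boxes from the first to the third quartile), with replicate 1 left and replicate 2 right. Black lines are medians: for the abaxial genes 4.41 and 3.24 in replicate 1 and 5.01 and 2.80 in replicate 2, body first, with overlapping points.

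By mean fold of both replicates the 12 shared peaks ran from 1.999 to 15.2, with a median of 4.40, against a median of 3.75 over all 16697 shared peaks. Above that median were 8 of the 12. The strongest shared peak per gene had a median of 4.86-fold over the 8 genes, against 4.66-fold over the coding genes with one. By this measure the order was KAN2 at 15.2, YAB2 at 7.16, ATS at 5.35, ARF3 at 5.27, YAB3 at 4.44, ARF4 at 4.36, YAB5 at 3.79 and YAB1 at 2.31. From YAB2 down to YAB5 the neighbours in this order had overlapping counting intervals in each replicate, and those of YAB5 and YAB1 overlapped in replicate 2 only. KAN2 lay above the upper interval bound of YAB2 in both.

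**Figure D4:**
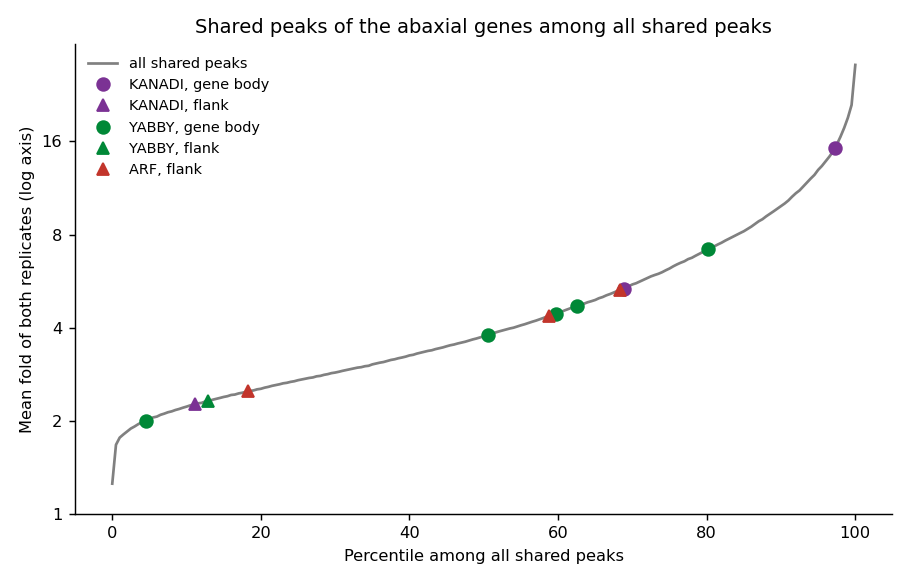
Mean fold of both replicates (log axis) against the percentile among all 16697 shared peaks (grey line), with the 12 shared peaks of the abaxial genes marked by family, circles for gene bodies and triangles for flanks. KAN2 is at percentile 97.3 and the first YAB2 peak at 80.2, while the inner YAB1 peak is at 4.53.

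The replicates were compared at these genes. Of the member peaks in replicate 1, 11 of 13 had a partner in replicate 2 (84.6%), against 77.7% of all nuclear peaks of that list. Of those in replicate 2, 12 of 14 had one (85.7%), against 78.2%. The tags at the 12 shared peaks split with 41.5% (YAB1, inner peak) to 59.2% (YAB5) in replicate 1, against 51.4% over all shared peaks. None of the 12 differed between replicates with an adjusted p under 0.05 (exact binomial test per peak, two-sided, Benjamini-Hochberg over all 16697 shared peaks), where 0.00599% of all shared peaks did. At an unadjusted p under 0.05 the count was also 0, against 1.29% of all, and the lowest unadjusted exact p was 0.116 at YAB5. Over all shared peaks the tags of the replicates varied 0.649 times as much as binomial sampling gives. The test could therefore hardly find a difference, and its counts of 0 do not show likeness. The fold was higher in replicate 2 at 10 of the 12, against 51.4% of all shared peaks, which was not tested.

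The limit of 3000 bp left out peaks of similar or greater strength. Just inside it stood the replicate 2 peak of YAB1 (2951 bp, 2.50-fold), the outer ATS peak and, at 2140 bp, the second KAN1 peak of replicate 2. Just outside, a replicate 2 peak of KAN2 stood 3063 bp off at 2.73-fold, and ARF3 had a shared peak 3293 bp off in replicate 1 at 2.35-fold, 3267 bp off in replicate 2 at 2.20-fold. Farther out, a shared peak of 9.07-fold in replicate 1 and 8.46-fold in replicate 2 stood 4893 and 4888 bp off the lower-coordinate end of KAN2, closer to the coding gene AT1G32230. A shared peak of 17.5-fold and 16.9-fold stood 3659 and 3657 bp off ARF3, inside the coding gene AT2G33850. Off YAB3 a shared peak of 7.87-fold and 7.74-fold stood at 4032 and 4007 bp, closer to the coding gene AT4G00190. ATS had shared peaks of 7.23-fold and 6.27-fold at 3653 and 3665 bp, and of 8.01-fold and 7.48-fold at 4345 and 4354 bp, all inside the coding gene AT5G42620. Those of KAN3 are given above.

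Of 20 other protein-coding genes of the polarity pathway, 17 had a shared peak in the gene or within 3000 bp, against 69.7% of coding genes, and 9 had one inside the gene, against 26.6%. Of 5 genes of the pathway that encode no protein (TAS3 and MIR390 loci), 2 had a shared peak. The share over all such genes is not given here. Over the 19 of these 25 genes with a shared peak, the strongest per gene had a median of 4.98-fold, against 4.66-fold over the coding genes with one. Of 11 genes listed for the tasiR-ARF pathway that acts on ARF3 and ARF4, 7 had a shared peak, against 69.7% of coding genes. Inside the gene 3 had one, against 26.6%, and the 11 include the 5 that encode no protein. DCL4, the Dicer enzyme that cuts the TAS3 precursor, had a peak inside the gene, 10.3-fold (8.75 to 12.2) and 12.1-fold (10.3 to 14.1) in replicates 1 and 2. DRB4, the RNA-binding partner of DCL4, had 7.94-fold (6.59 to 9.48) and 7.68-fold (6.32 to 9.26) 1715 bp past its higher-coordinate end, closer to another gene. TAS3 itself, TAS3C, MIR390B and SGS3 had no shared peak in their windows.

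The other YABBY genes, CRC of the carpel and INO of the ovule, both had a shared peak, as did 69.7% of coding genes. That of CRC was 7.31-fold (5.97 to 8.85) and 7.03-fold (5.68 to 8.60), 2107 bp past its higher-coordinate end, and the strongest of INO was 4.76-fold (3.70 to 6.03) and 5.22-fold (4.07 to 6.59), 1483 bp past its own, both closer to another gene. INO also had 1 inside the gene, while CRC had none there. Of the 5 genes for co-repressors that partner YABBY proteins, 4 had a shared peak, against the same 69.7%. LUH, a LEUNIG homologue, had the strongest at 16.9-fold (237 tags) and 17.5-fold (231 tags), 358 bp past its higher-coordinate end, and LUG had 4.33-fold (3.33 to 5.55) and 5.67-fold (4.47 to 7.10) inside a neighbouring gene. Of the 7 adaxial genes (the HD-ZIP III genes with AS1 and AS2), 6 had a shared peak, against 69.7% of coding genes. Inside the gene 2 had one, against 26.6%. The strongest were at ATHB-8, at 13.1-fold (11.3 to 15.1) and 13.4-fold (11.5 to 15.6), 959 bp past its higher-coordinate end, and at ATHB-15, at 10.2-fold (8.62 to 12.0) and 9.89-fold (8.28 to 11.7), 2887 bp off its lower-coordinate end and closer to another gene. Both had a higher fold than any shared peak of the abaxial genes other than that of KAN2, which was 14.5-fold and 16.0-fold.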

How the data were processed

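Peaks were the authors' own, listed per replicate and not on pooled samples, in coordinates of TAIR10, per the submitters' processing notes, which also name cutadapt. The caller was MACS, per the peak names, with a version, threshold and control library not given in the sources used here. Deposited lists give the fold enrichment at the summit (a ratio to the caller's background), −log10 p and −log10 q, and a score that as deposited was within 1 of 10 times the −log10 q. The tag number at each summit was worked out from the deposited fold with its −log10 p, and matched 100% of peaks in each list. The median summit held 47 and 44 tags, and 10.8% and 8.01% of nuclear peaks had a q above 0.05.

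Genes came from a RefSeq table of TAIR10.1, whose coordinates are not printed and served for distances. It has no strand, so promoter and 3′ ends were not told apart, nor were exons, introns and UTRs, and no sequences were used. A flank summit of the coding background lay within 3000 bp of a coding gene and inside none. Fold intervals are 95% exact Poisson intervals of the tags at the given background. At shared peaks the tags of the replicates varied 0.649 times as much as binomial sampling gives, less than the sampling noise, so they were counted as 1 sample, both values are given and no SD. No label gives separate plants for them, and the test between them measures counting only. The script was tested on simulated data (Python 3.11.15, scipy 1.17.1). Members, gene lists and tests were chosen with earlier results of these data known. Named were all members with all their peaks, and by value at most 2 genes of each other list, by highest mean fold. Other genes without a shared peak (TAS3, TAS3C, MIR390B and SGS3) were named after their values were seen.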

Additional observations from a re-analysis of the deposited data

How the results depend on the processing

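The number of genes with a shared peak was 8 of 10 and stayed between 6 and 9 under the alternatives except 1. It was 2 with only the 5000 peaks of highest fold, against 26.1% of coding genes. The share of coding genes with a shared peak changed as well, so a steady count is not a steady position against other genes. That share was 69.7% in the main setting, and 59.9% and 45.9% with shorter flanks, where the count stayed 8. With −log10 q of at least 10 the share was 44.3%, and in gene bodies alone 26.6%, where the count was 6 in each. The number of genes was 9 without replicate 1 and 9 without replicate 2, where 1 list alone defined a peak. The number of shared peaks was 12, and 7 with −log10 q of at least 10. It was 9 to 13 under the other alternatives. The log2 difference between gene bodies and flanks, a mean of 0.64 over the replicates, was 0.19 with −log10 q of at least 10, and 0.44 to 0.84 when either replicate was left out. It was 0.40 without YAB1 and 0.62 without KAN2, both chosen after seeing the data, and kept its sign under each alternative run. The count with q of at most 0.05, also added later, was 8, against 67.7% of coding genes. The number of shared peaks whose tags differed between replicates (exact binomial test) was 0 at an adjusted and at an unadjusted p under 0.05 in each of 3 settings. That test could hardly find a difference, since the tags varied less than binomial sampling gives. No paired analysis was possible because the study held only 1 input and no peak list was used for it. Weak peaks rested on 22 to 36 tags, where the caller's threshold decides whether a peak is listed.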
